A study of Danio rerio with 63 samples.

Results

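The cytosolic ribosomal protein genes encode the proteins of the large subunit (names beginning rpl, with the stalk proteins rplp) and of the small subunit (names beginning rps) of the ribosome that translates nuclear mRNAs. They were taken by name: every protein-coding row whose symbol begins with rpl or rps and a number, or with rplp and a number, without the S6 kinases (rps6k) and rps19bp. Of 32057 genes in the deposited table, 81 fitted, and 71 had more than 63 counts in total over 63 libraries, 41 of the large and 30 of the small subunit. All 71 passed the filter on low counts and were among 19069 genes tested. A further 10 genes held between 0 and 23 counts each in total and were not followed: rpl9, rpl10, rpl12, rpl30, rpl32, rpl36a, rpl39, rps3a, rps13 and rps27a. How reads that match several genes were treated is not given in the sources used here, so these low counts cannot be read as low expression. The count nearest above the threshold was that of rpl26, with 227, and the nearest below that of rpl30, with 23.

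Each ribosomal protein is built into a ribosome with the rRNAs, and cells that grow or divide make the proteins of both subunits together. In vertebrates, mRNAs of these genes share a pyrimidine-rich start through which the kinase mTOR controls their translation, so that mRNA level and protein output can differ. A fish egg is laid with a maternal stock of ribosomes, and its early cleavages run largely on that stock. Several of the genes exist as duplicate copies in fish, marked by a letter, by an l or by a point number after the name.

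Polyadenylated RNA had been sequenced from explants of the zebrafish (Danio rerio) blastoderm, the cell cap of the blastula, cut off at about 3 hours post fertilization (hpf) and kept in culture. Embryos had received, at the one-cell stage, 10 pg of mRNA for the Nodal ligand ndr2, or 0.5 pg of mRNA for CA-acvr1b*, a constitutively active form of a type I Nodal receptor, or no injection. Injection at that stage aims at no single cell type, and no control-injected group was used here. Explants of each of these 3 conditions were collected when intact embryos stood at 1 of 7 stages. Sphere was taken at 4 hpf, 30% epiboly at 4.7 hpf and 50% epiboly at 5.3 hpf. Shield followed at 6 hpf, 75% epiboly at 8 hpf, 90% epiboly at 9 hpf and the 2-somite stage at 11 hpf. Every group has 3 biological replicates, lettered A, B and C.

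Libraries held 11756626 to 19650245 counts, with a median of 15620678. The blastoderm markers pou5f3, nanog, sox3, sox19b and tfap2a were all detected, with a summed level of 1423 to 7012 CPM (a count relative to its library total, with TMM scaling) in every library. The yolk syncytial layer regulator mxtx2 was listed at 0, and hnf4a, ttr and apoa4b.1, further genes of that layer, had 36 to 68 counts in all libraries together, whereas 5 other genes on the list of that layer and the yolk were tested, with 394 counts for apoa1b, 793 for apobb.1, 1928 for slc40a1, 7110 for gata6 and 1738932 for apoeb. On the list of Nodal targets, gsc and ndr1 were also at 0 in all libraries, so a count of 0 here cannot be read as absence. Genes of the enveloping layer, the outer epithelium that a blastoderm explant carries with it, were present, and their levels are given beside the results they move with. Fewer cells of a type and less RNA per cell cannot be told apart in such samples.

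The ribosomal protein genes took a growing share of the polyadenylated RNA as the explants aged, and the rise was of like size in the 3 conditions. In uninjected explants the 71 genes together held 0.479% ± 0.0866 (SD, n = 3) of a library's counts at sphere, 1.40% ± 0.0402 at shield and 2.90% ± 0.0992 at 2-somite, 6.06 times the share at sphere. In ndr2 explants the share went from 0.475% ± 0.0563 to 1.33% ± 0.0951 and 3.11% ± 0.0993, a ratio of 6.54 between the ends. In CA-acvr1b* explants it went from 0.425% ± 0.0190 to 1.36% ± 0.153 and 2.83% ± 0.340, a ratio of 6.66. No library of one condition's 2-somite group came near any sphere library, whereas the 3 conditions overlapped at every stage but 30% epiboly, where the ndr2 libraries lay above those of CA-acvr1b* explants. These shares are descriptions without a test.

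**Figure D1:**
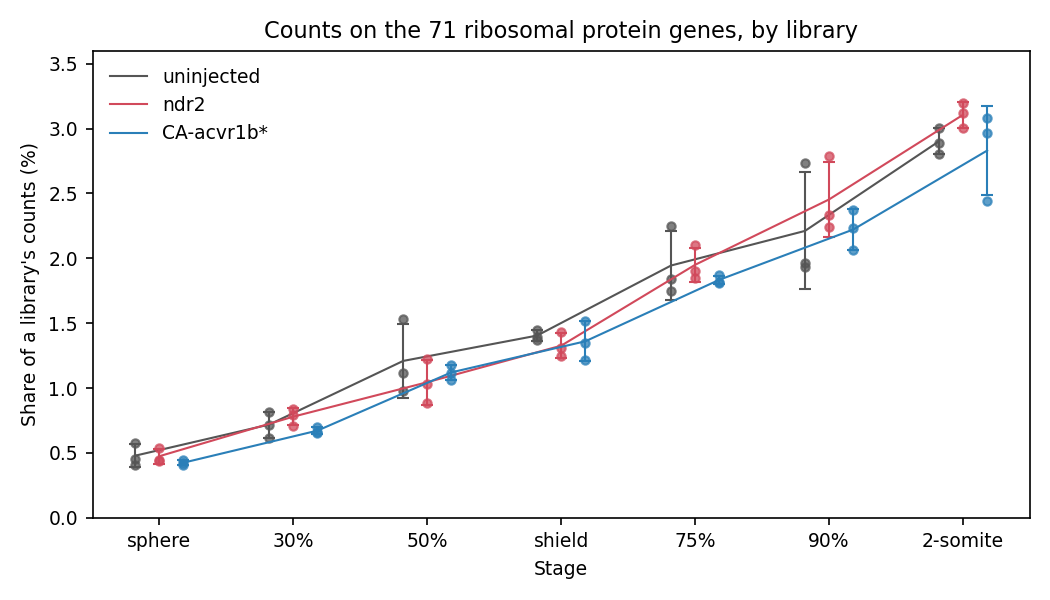
Share of each library's counts held by the 71 ribosomal protein genes (vertical axis, %) at the 7 stages (horizontal axis), with 1 point per library, the mean joined by lines and bars of 1 SD (n = 3). The share climbs from under 0.6% at sphere to between 2.44% and 3.20% at 2-somite in all 3 conditions, and the uninjected replicates spread most at 50% and 90% epiboly.

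Uninjected replicate A had the highest share of the 3 uninjected replicates at all 7 stages. Its share was 0.576% against a lowest of 0.408% at sphere, 1.53% against 0.979% at 50% epiboly and 2.73% against 1.94% at 90% epiboly. In the same libraries the summed level of 7 enveloping layer markers (krt4, krt5, krt8, krt17, krt92, cyt1 and cldne) was also the highest of the 3 at all 7 stages, for example 14420 CPM against 7775 and 5870 CPM at 50% epiboly. The summed yolk syncytial layer and yolk markers were highest in replicate A at 6 of 7 stages, at 2250 against 1163 and 983 CPM at 50% epiboly. Nearly all of that sum is apoeb, so it stands for 1 gene more than for a set. The blastoderm markers were lowest in it at 50% epiboly, shield, 75% epiboly, 90% epiboly and 2-somite. They were at 5982 against 6619 and 6199 CPM at 50% epiboly and at 2849 against 4622 and 4860 CPM at 90% epiboly. At sphere they were highest in it, at 5080 against 4927 and 4149 CPM. All 3 marker sums also changed with stage in uninjected explants. From sphere to 2-somite the mean went from 268 to 29295 CPM for the enveloping layer. It went from 121 to 4737 CPM for the yolk syncytial layer and yolk, and from 4719 to 1849 CPM for the blastoderm. Neither the part of these cells in the share nor that of a difference in stage was tested. Only some results are given with and without uninjected replicate A. With replicate A left out of every condition, the group means of the share were 0.867 to 1.05 times those with all libraries.

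Between sphere and 2-somite, 68 of the 71 genes rose in uninjected explants, 68 in ndr2 explants and 68 in CA-acvr1b* explants, and none fell (edgeR quasi-likelihood test, adjusted p under 0.05). The same 68 genes rose in all 3. Of all 19069 genes tested, 33.2%, 35.4% and 35.7% rose, and 33.1%, 32.5% and 32.1% fell. The median log2 fold change of the members was 2.87, 3.15 and 3.15, beside 0.03, 0.11 and 0.16 over all genes tested. Both subunits took part, with 39 of 41 large-subunit genes and 29 of 30 small-subunit genes called in uninjected explants and medians of 2.97 and 2.86.

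**Figure D2:**
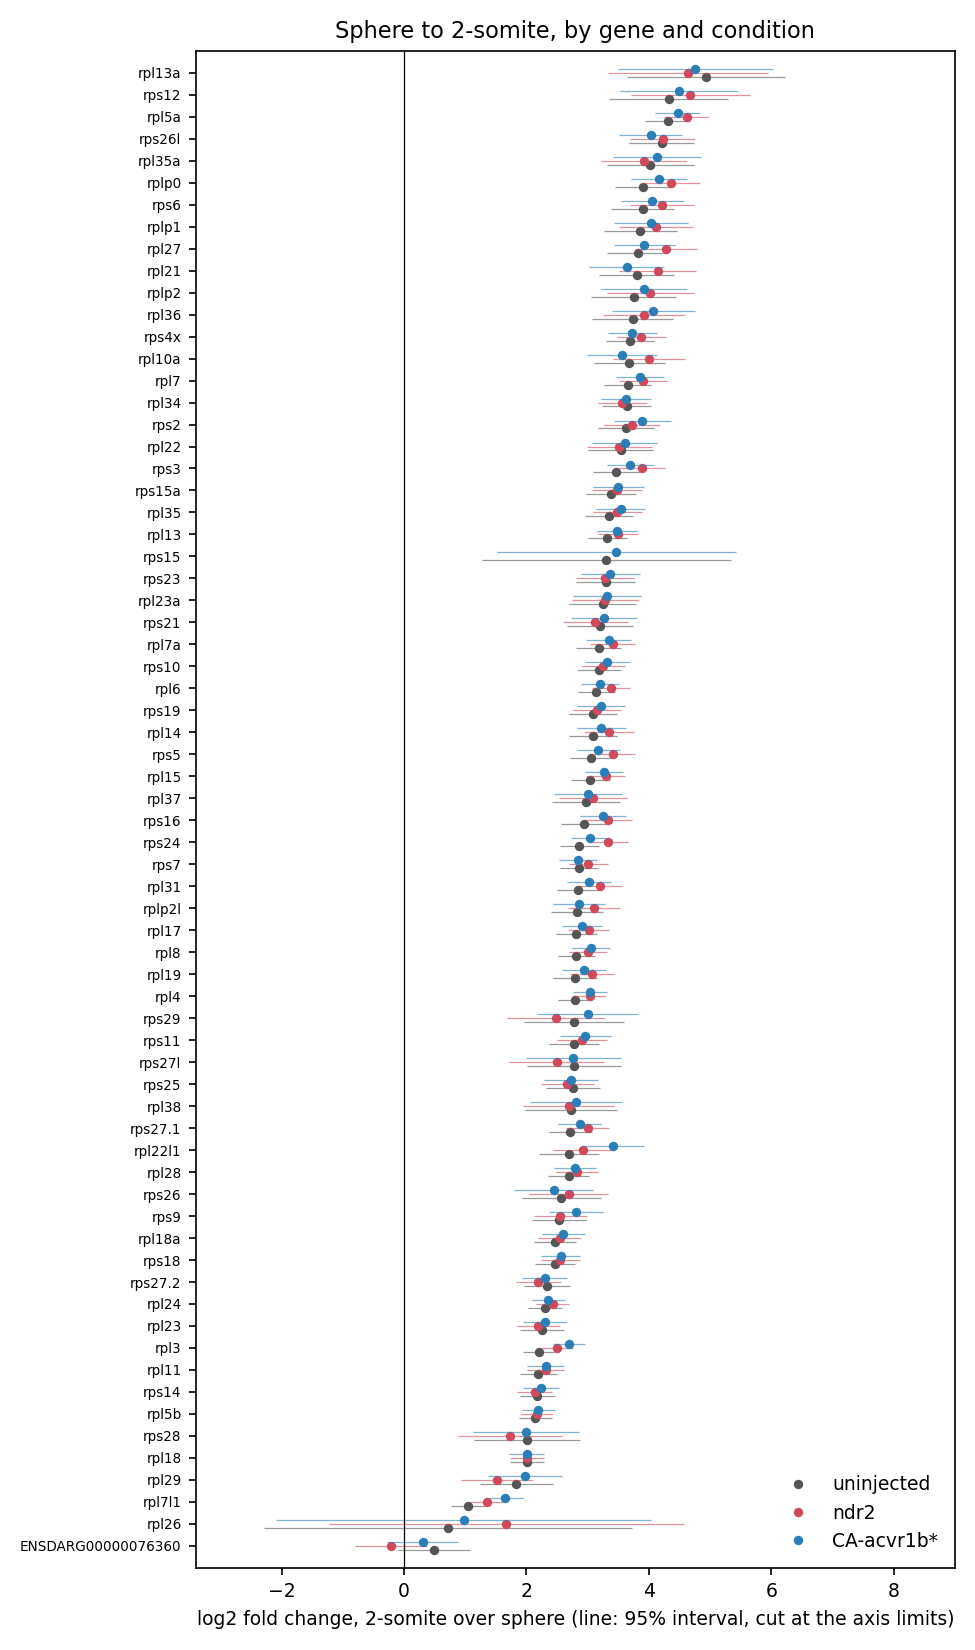
Log2 fold change from sphere to 2-somite (horizontal axis) for the members named on the vertical axis, ordered by the uninjected value, in uninjected, ndr2 and CA-acvr1b* explants, with 95% intervals. Nearly all points lie between 1 and 5 and the 3 conditions lie close together for most genes; rps15 in ndr2 explants is not drawn because its sphere libraries hold no count, and rpl26 and ENSDARG00000076360 sit at the bottom with intervals across 0.

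The 4 stalk genes rose at every interval compared, and from sphere to 2-somite in uninjected explants 3 of them rose by more than the median member. rplp0, the base of the stalk on which elongation factors act, was at 127.6, 89.56 and 62.9 CPM in the uninjected sphere libraries, at 764.5, 668.1 and 639.8 CPM at shield and at 1533, 1298 and 1384 CPM at 2-somite. No library of one of these stages overlapped another stage. The log2 fold change from sphere to 2-somite was 3.91 ± 0.23 (SE, adjusted p = 6.3e-20) in uninjected explants, 4.36 ± 0.23 in ndr2 explants and 4.17 ± 0.23 in CA-acvr1b* explants. rplp1 and rplp2, the acidic proteins that dimerize on rplp0, rose by 3.86 ± 0.30 and 3.75 ± 0.35 in uninjected explants, and rplp2l, a second copy of rplp2, by 2.83 ± 0.21.

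rps6, the small-subunit protein that S6 kinases phosphorylate downstream of mTOR, was at 85.77, 49.34 and 39.35 CPM at sphere and at 890.7, 805.5 and 901.2 CPM at 2-somite in uninjected explants. Its rise was 3.90 ± 0.25 on the log2 scale (adjusted p = 4.2e-18), and every 2-somite library lay above every sphere library. rpl3 and rpl4, proteins of the large-subunit core, are among the members with the most counts. rpl3 rose by 2.21 (adjusted p = 1.09e-20) and rpl4 by 2.79 (adjusted p = 1.29e-23).

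On the log2 scale most of the rise came before shield, while in percentage points the larger part of the gain in share came after it. Between sphere and shield, 69 of 71 genes rose in uninjected, 69 in ndr2 and 68 in CA-acvr1b* explants (30.4%, 30.5% and 30.9% of all genes tested, while 30.2%, 29.6% and 30% fell), with medians of 2.11, 2.10 and 2.22 on the log2 scale. Between shield and 2-somite, 57, 58 and 59 genes rose (21.1%, 23.9% and 24.1% of all genes), with medians of 0.89, 1.10 and 0.90, and 57 rose in all 3 conditions. From sphere to 30% epiboly the median step in uninjected explants was 0.81, and from 30% to 50% epiboly 0.96, with a higher mean for 71 of 71 genes in both. Without uninjected replicate A these steps were 0.89 and 0.84, and in ndr2 explants 0.90 and 0.65, so that the order of the steps turned. In CA-acvr1b* explants they were 0.81 and 0.98, in the same order as with all uninjected libraries. The highest group mean lay at 2-somite for 64 genes in uninjected, 56 in ndr2 and 62 in CA-acvr1b* explants.

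**Figure D3:**
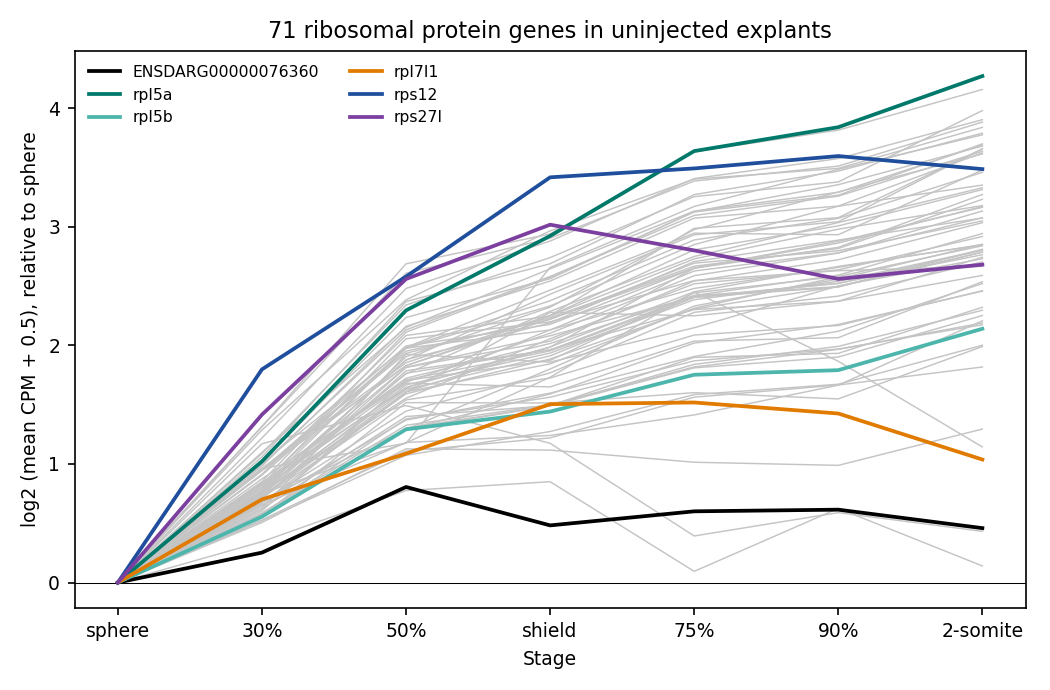
Mean level of each of the 71 genes in uninjected explants (log2 of CPM + 0.5, vertical axis, set to 0 at sphere) over the 7 stages (horizontal axis). Grey lines are the members not named; the coloured lines are rpl5a near the top, rpl5b in the lower part, rpl7l1, rps27l and rps12, which level off or fall after shield, and ENSDARG00000076360, which ends near its start.

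The members kept close to a common course. The correlation of a gene's log2 CPM with the median of the other members over 63 libraries had a median of 0.992, and 62 of 71 genes reached 0.9. The points share libraries and stage, so this is a description. Among the 9 below 0.9 were ENSDARG00000076360 (0.104), rpl26 (0.334), rps15 (0.749), rps27l (0.801), rps28 (0.861), rpl7l1 (0.863) and rpl13a (0.888). Of these, ENSDARG00000076360, rpl26, rps15 and rpl13a had under 10000 counts in total.

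Of the 71 genes, 3 did not pass the test between sphere and 2-somite in any condition, and 2 of them are described here. rpl26 had 4, 0 and 1 counts in the uninjected sphere libraries and 0, 0 and 7 at 2-somite, so a change of its size was not detectable at this depth.

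ENSDARG00000076360 is 1 of 2 rows that the deposited table calls rpl37, and the gene name table gives it the symbol COA1, so its place among ribosomal protein genes is uncertain. It was at 6.401, 5.628 and 6.464 CPM at sphere and 8.287, 8.402 and 9.287 CPM at 2-somite in uninjected explants. The groups did not overlap, but the log2 difference of 0.49 ± 0.29 did not pass the test (adjusted p = 0.134). The other rpl37 row rose by 2.97 (adjusted p = 3.05e-13).

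The largest fitted rises in uninjected explants were those of rpl13a (4.93 ± 0.64), rps12 (4.32 ± 0.48), rpl5a (4.31 ± 0.18), rps26l (4.21 ± 0.26) and rpl35a (4.02 ± 0.35). rpl13a, which in human cells can leave the ribosome to silence inflammatory mRNAs, had 14, 3 and 4 counts at sphere and 163, 193 and 178 at 2-somite. rps12 had 27, 2 and 4 counts at sphere and 133, 223 and 196 at 2-somite, and had reached 145, 166 and 139 by shield. Sphere libraries of both genes thus hold few counts, and replicate A the most of them. rpl35a and rps26 are among the genes mutated in Diamond-Blackfan anaemia, a human disorder of red cell formation.

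rps15, a small-subunit head protein, had no count in any ndr2 sphere library and 18, 12 and 19 counts at 2-somite, at least 6.91-fold higher when each sphere library is set to the floor of 3 counts. With rps15 at that bound the median of the members in ndr2 explants was 3.12 in place of 3.15. In uninjected explants rps15 rose by 3.30 (adjusted p = 0.00396), a call that was lost without replicate B (adjusted p = 0.0724) and without replicate C (adjusted p = 0.0842), and its size went to 6.94 without replicate A.

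Some members left the common course after shield. rps27l, a copy of rps27 that p53 activates in human cells, went from 11.74, 4.948 and 3.643 CPM at sphere to 58.5, 59.61 and 57.37 CPM at shield and to 40.96, 55.89 and 41.76 CPM at 2-somite. Every shield library of rps27l lay above the 2-somite libraries, with a log2 difference of -0.34 ± 0.35 that did not pass the test (adjusted p = 0.462).

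rpl7l1 was the only member called lower between shield and 2-somite. It resembles rpl7, and its yeast counterpart is a factor of large-subunit assembly. In uninjected explants it was at 61.67, 43.81 and 43.97 CPM at sphere, at 153.1, 144.5 and 129.4 CPM at shield and at 87.38, 108.7 and 112.3 CPM at 2-somite, so that shield lay above both ends without overlap. It rose by 1.51 ± 0.14 to shield (adjusted p = 2.49e-13) and fell by 0.47 afterwards (SE 0.14, adjusted p = 0.00522). In ndr2 explants it fell by 0.42 (SE 0.14, adjusted p = 0.0109), and in CA-acvr1b* explants the difference was -0.11 ± 0.14 (adjusted p = 0.554). Of all genes tested, 21.7% fell between these stages in uninjected, 22.5% in ndr2 and 20.1% in CA-acvr1b* explants. Whether the falls by themselves differ between the conditions was not tested. The joint edgeR test of dependence on stage, which takes all 7 stages together, did not call rpl7l1 in any pair of conditions. Its adjusted p in that test was 0.84 for ndr2 and 0.46 for CA-acvr1b* beside uninjected explants.

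Duplicate copies shifted against each other. A ratio between copies depends on their lengths and on how reads shared between copies were counted, so only its change is read here, over 9 sphere and 9 2-somite libraries with conditions pooled (exact two-sided permutation test, adjusted over 9 pairs). The ratio of rpl5a to rpl5b went from 0.171 to 0.838, a 4.91-fold change (adjusted p = 9.26e-05). The sphere libraries ran from 0.143 to 0.193 and the 2-somite libraries from 0.696 to 1.09, and the log2 change was 2.16 in uninjected, 2.45 in ndr2 and 2.27 in CA-acvr1b* explants. rpl5 carries the small rRNA of the large subunit into the ribosome together with rpl11, and in mammals the free complex binds Mdm2 and stabilizes p53.

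Both rpl5 copies rose. In uninjected explants rpl5a was at 23.27, 19.6 and 18.88 CPM at sphere and at 428.4, 387.8 and 405.0 CPM at 2-somite. rpl5b was at 130.2, 121.1 and 101.8 CPM at sphere and at 490.7, 509.1 and 562.5 CPM at 2-somite. The log2 rises were 4.31 ± 0.18 for rpl5a (adjusted p = 1.08e-25) and 2.15 ± 0.14 for rpl5b (adjusted p = 1.39e-19). rpl5a thus rose by more than rpl5b, without overlap between the stages in either.

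Of the 9 pairs 8 are reported here. Among the others, rpl7 over rpl7l1 rose 5.47-fold, rps26l over rps26 2.95-fold and rplp2 over rplp2l 1.99-fold (adjusted p = 9.26e-05 each, exact permutation test, the smallest these 9 against 9 libraries can give before adjustment being 4.11e-05). In these 3 pairs, as in rpl5, no sphere library overlapped a 2-somite library. rpl22 over rpl22l1 changed 1.49-fold (adjusted p = 0.000423, exact permutation test), with overlap. Its log2 change was unequal, at 0.87 in uninjected, 0.63 in ndr2 and 0.23 in CA-acvr1b* explants. rps27.1 over rps27.2 changed 1.5-fold (adjusted p = 0.000148, exact permutation test), also with overlap. Its log2 change was 0.36 in uninjected, 0.81 in ndr2 and 0.59 in CA-acvr1b* explants. rpl22 and rpl22l1 are RNA-binding copies with opposed roles in blood stem cell formation in zebrafish. The ratios of rps27.1 and of rps27.2 to rps27l did not pass (adjusted p = 0.482 and 0.141, exact permutation test), with values of 9.47 and 10.3 at sphere, 3.94 and 3.27 at shield and 10.7 and 7.75 at 2-somite. At shield, then, rps27l was high relative to both other copies.

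**Figure D4:**
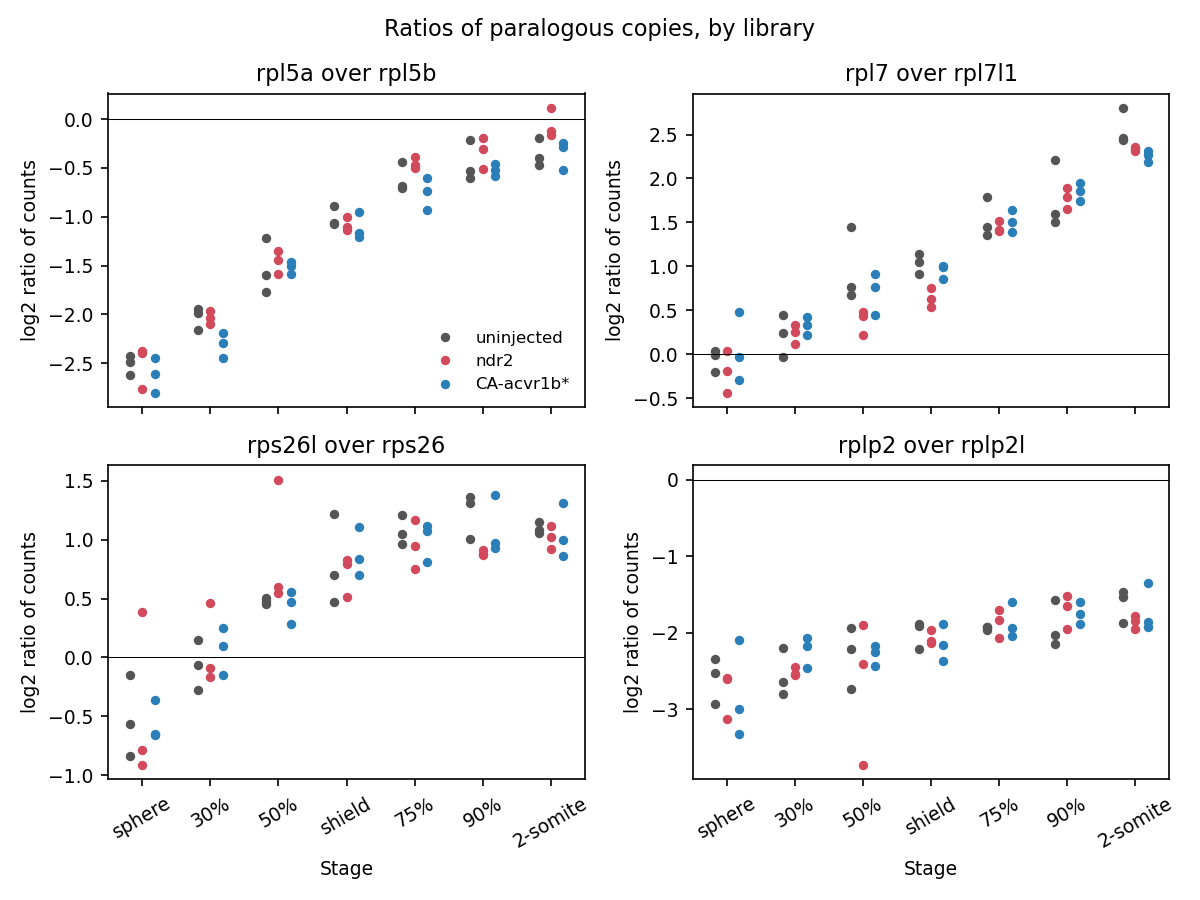
Log2 ratio of the counts of paralogous copies (vertical axis) in each library at the 7 stages (horizontal axis), for rpl5a over rpl5b, rpl7 over rpl7l1, rps26l over rps26 and rplp2 over rplp2l. In all 4 pairs the 2-somite libraries of the 3 conditions lie above the sphere libraries, and in rpl5a over rpl5b the points climb with each stage from near -2.5 to near 0.

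Lists of other genes of the translation machinery were described in the same way. Of ribosomal proteins that the name rule misses, 6 rows were tested, rpsa, faua, rack1 and rps20 among them, and 6 rose from sphere to 2-somite in uninjected explants, with a median of 2.90; faua, which encodes a ribosomal protein fused to a ubiquitin-like protein, rose by 4.43 ± 0.26 (adjusted p = 2.45e-20). Of 63 mitochondrial ribosomal protein genes tested, 24 rose and 22 fell, with a median of 0.32. Of 19 genes for translation elongation and other mRNAs with a pyrimidine-rich start, 13 rose and 1 fell, with a median of 1.59, among them the elongation factor gene eef1a1l1 with 3.48 ± 0.19 (adjusted p = 1.3e-20). Of 27 mTOR and Myc regulators, 11 rose and 11 fell, with a median of 0.26, the largest fall being that of rheb, the activator of mTOR (-4.67 ± 0.48, adjusted p = 2.36e-12). Over this interval in uninjected explants, 33.2% of all genes tested rose and 33.1% fell. Differences between these lists and the 71 genes were not tested.

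Ribosome assembly genes make and process rRNA and join it to the proteins, and 99 were tested. From sphere to shield in uninjected explants, 72 rose and 17 fell, with a median of 0.98, and from shield to 2-somite 3 rose and 52 fell, with a median of -0.46. Of all genes tested, 30.4% rose and 30.2% fell to shield, and 21.1% rose and 21.7% fell afterwards. Over the same later interval 57 of the 71 ribosomal protein genes rose and 1, rpl7l1, fell; rpl7l1 is also on the assembly list. Among the assembly genes, nop2, an rRNA methyltransferase, rose most from sphere to 2-somite (4.00 ± 0.29, adjusted p = 1.25e-16), and krr1, a factor of small-subunit processing, fell most after shield (-1.57 ± 0.16, adjusted p = 1.07e-11).

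The enveloping layer markers rose with the ribosomal protein genes over time. From sphere to 2-somite, 7 of 8 listed were tested and 7 rose in each condition, and their summed level ran from 23.3 to 607 CPM over the sphere libraries and from 20710 to 35670 CPM over the 2-somite libraries. Of 5 tested yolk syncytial layer and yolk markers, 4 rose in uninjected explants, with a summed level of 43.3 to 179 CPM at sphere and 967 to 5191 CPM at 2-somite, most of it from apoeb. Their part in the rise of the ribosomal protein genes was not tested.

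Few ribosomal protein genes were called between the conditions at single stages, and in most of these comparisons few of all genes were. Of 21 comparisons of 2 conditions at 1 stage, 19 called none of the 71 genes with edgeR, and DESeq2 called none there either. Between 0 and 7 genes had an unadjusted p under 0.05 in each of the 19. The share of all genes at an unadjusted p is not given here for any comparison, so such counts have no background beside them. The median difference of the members ran from -0.28 to 0.21 on the log2 scale over the 21 comparisons. The 95% interval of the difference lay within 2-fold either way for 55 to 66 of the 71 genes. Within 1.5-fold it lay for 20 (50% epiboly) to 52 (shield), both in ndr2 against uninjected explants. In simulated data with 200 of 18218 genes changed, the test of ndr2 against uninjected at 2-somite called 9% of 1.5-fold and 92% of 3-fold changes. Differences of 1.5-fold could thus go uncalled at a stage where few genes are called. At 2-somite 2334 of 19069 genes were called in the data. The adjusted threshold there differs from the simulated one, so the 9% cannot be carried over to that stage. Of all genes, the share called in ndr2 against uninjected explants was 0.236% at sphere, 0.225% at 30% epiboly, 1.07% at shield and 1.81% at 75% epiboly. In CA-acvr1b* against uninjected explants it was 0.042% at sphere, 0.173% and 0.357% at 30% and 50% epiboly, 0.472% at shield, and 1.62% and 2.49% at 75% and 90% epiboly. Between the 2 injections it was 0.0524% at sphere, 0.262% at 30% epiboly, 0.205% at shield, 0.231% and 0.372% at 75% and 90% epiboly and 0.362% at 2-somite. Nodal target genes did respond: at 2-somite tbxta, a mesoderm regulator, was higher by 7.90 ± 1.02 in ndr2 explants (adjusted p = 1.53e-07) and by 7.76 ± 1.01 in CA-acvr1b* explants (adjusted p = 2.15e-07).

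The exceptions were at 50% epiboly. rpl5b was at 334.5, 302.9 and 229.5 CPM in uninjected, at 214.7, 200.3 and 135.2 CPM in ndr2 and at 245.8, 296.6 and 247.6 CPM in CA-acvr1b* explants. All ndr2 libraries lay below all libraries of the other conditions. rpl5b was lower in ndr2 than in uninjected explants by a log2 difference of -0.66 ± 0.13 (adjusted p = 0.00365) and than in CA-acvr1b* explants by -0.52 ± 0.13 (adjusted p = 0.0372). rpl5a was at 144.0, 88.97 and 75.94 CPM in uninjected and at 84.3, 66.57 and 49.88 CPM in ndr2 explants, groups that overlapped, with a difference of -0.62 ± 0.16 (adjusted p = 0.0280). Without uninjected replicate A the rpl5a difference was -0.32 (adjusted p = 0.333) and the rpl5b difference -0.55 (adjusted p = 0.04).

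These 2 genes were the 2 called of 71 against uninjected explants, where 1.46% of all genes were called, and rpl5b the 1 called against CA-acvr1b* explants, where 0.718% were. The count against uninjected explants was 1 without replicate A, 0 without B, 1 without C and 1 without uninjected replicate A. The rpl5b difference from uninjected explants passed in 8 of 9 alternatives and that from CA-acvr1b* explants in 6 of 9, with an adjusted p up to 0.446. The rpl5a difference passed in 4 of 9. At this stage 64 of the 71 genes were lower in ndr2 than in uninjected explants, with a median of -0.28 against -0.02 over all genes, and uninjected replicate A stood highest. Without uninjected replicate A the median was -0.04, with 29 of the 71 genes above 0. The summed yolk syncytial layer and yolk markers, nearly all of it apoeb, were also lower in ndr2 explants, at 493 to 764 CPM against 983 to 2250 CPM. Their part in the difference was not tested.

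At 90% epiboly 0 of 71 genes were called between ndr2 and uninjected explants with edgeR, beside 2.61% of all genes, and 0 with DESeq2. At an unadjusted p under 0.05 there were 7 of the 71, and the share of all genes at that threshold is not given here. The count of genes called became 7, all higher in ndr2, without replicate A, and 2 without uninjected replicate A alone. Shares of all genes called in those fits are not given here.

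At 2-somite the ribosomal protein genes and the ribosome assembly genes differed in their calls. Of the 71 genes 0 were called in ndr2 against uninjected explants, with 2 at an unadjusted p under 0.05, and 0 in CA-acvr1b* against uninjected explants, with 1; DESeq2 called 0 in both. Of all genes, 12.2% and 9.15% were called. Of the 99 assembly genes, 49 were higher in ndr2 and 0 lower, and 34 were higher in CA-acvr1b* and 0 lower, with medians of 0.45 and 0.35 beside 0.12 and -0.03 for the 71 genes. rrs1, which brings the small rRNA and its proteins into the large subunit, was higher by 1.22 ± 0.19 in ndr2 (adjusted p = 2.28e-06) and by 0.96 ± 0.19 in CA-acvr1b* explants (adjusted p = 0.000178). Both comparisons share the uninjected libraries. The assembly count in ndr2 was 28 without replicate A and 25 without replicate B, and in CA-acvr1b* 5 without replicate A and 21 without replicate C. The summed yolk syncytial layer and yolk markers, nearly all of it apoeb, were at 3965 to 5191 CPM in uninjected explants. They were at 1936 to 2848 CPM in ndr2 and 967 to 2646 CPM in CA-acvr1b* explants, and their part in these counts was not tested.

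**Figure D5:**
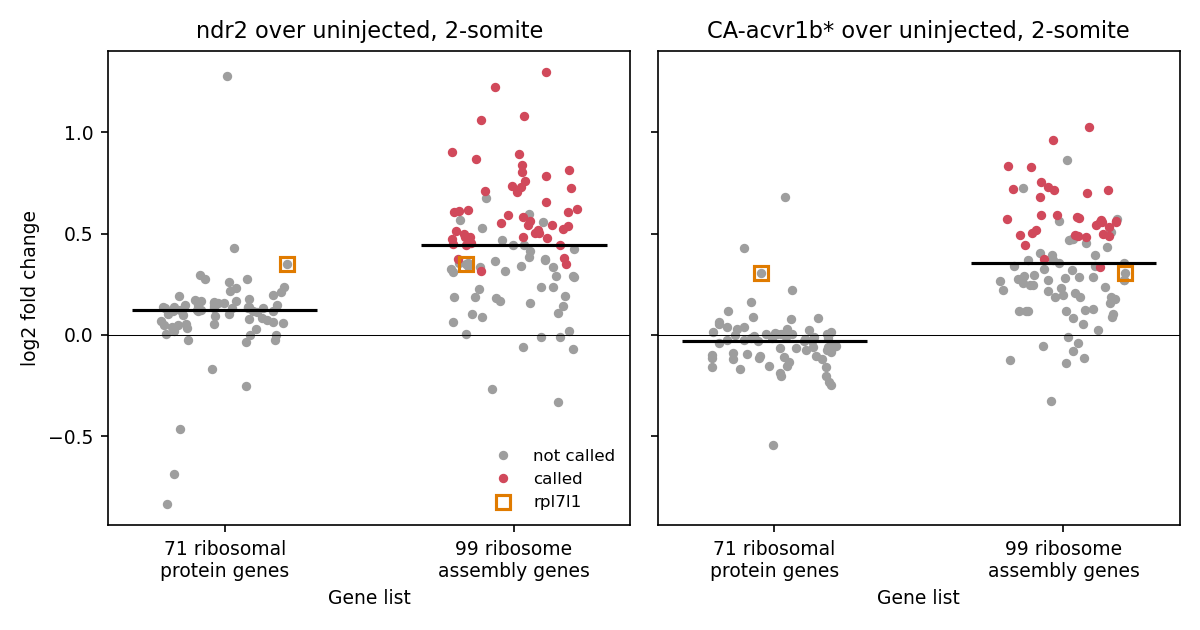
Log2 fold change at 2-somite (vertical axis) of the 71 ribosomal protein genes and the 99 ribosome assembly genes tested, in ndr2 over uninjected (left) and CA-acvr1b* over uninjected explants (right); each point is a gene, red where called (adjusted p under 0.05), and black bars are medians. No ribosomal protein gene is red, while 49 and 34 assembly genes are, all above 0; rpl7l1, which belongs to both lists, is boxed.

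rpl7l1 was at 87.38, 108.7 and 112.3 CPM in uninjected, at 123.7, 136.5 and 132.9 CPM in ndr2 and at 135.6, 134.8 and 111.1 CPM in CA-acvr1b* explants at 2-somite. The ndr2 libraries lay above the uninjected ones, with a difference of 0.35 ± 0.14 that did not pass the test (adjusted p = 0.0971). Of 27 mTOR and Myc regulators, 5 were higher and 3 lower in ndr2 explants, where 12.2% of all genes were called. Among those higher was mycn, a Myc family gene that drives ribosome production (4.46 ± 0.36, adjusted p = 5.63e-13). The part of these regulators in the other differences was not tested. Of the 19 elongation and related genes, 1 was higher and 1 lower.

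Averaged over the 7 stages with equal weight, 6 of 71 genes differed between ndr2 and uninjected explants, where 17.9% of all genes did. Higher were rpl38 (0.37 ± 0.13, adjusted p = 0.0421) and rpl7l1 (0.20 ± 0.05, adjusted p = 0.00425). Lower were rps27l (-0.43 ± 0.14, adjusted p = 0.0200), rpl21 (-0.36 ± 0.10, adjusted p = 0.0100), rpl5b (-0.27 ± 0.05, adjusted p = 4.42e-05) and rpl5a (-0.20 ± 0.06, adjusted p = 0.0156). Without uninjected replicate A, rpl5a was at -0.09 (adjusted p = 0.256) and rpl21 at -0.32 (adjusted p = 0.0597), and neither passed. The mean of rpl5b was lower in ndr2 explants at 7 of 7 stages, without overlap at 4, and that of rpl7l1 higher at 7 of 7, without overlap at 3. With all libraries, the share of members called lay below that of all genes.

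That average treats the libraries of one lettered series as independent. With the counts of a series added up over its stages, 0 of the 71 were called; rpl5b differed by -0.26 (adjusted p = 0.0621) and rpl7l1 by 0.23 (adjusted p = 0.0688). The count was 2 without replicate B, and 23, of which 21 higher in ndr2, without uninjected replicate A. Of the 6, 4 were among the 23. The share of all genes called in these fits is not given here, so the 23 cannot be set against it. The estimate was above 0 for 35 of the 71 genes with all libraries and for 63 without uninjected replicate A.

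Between CA-acvr1b* and uninjected explants none of the 71 genes was called on average by edgeR, where 6.81% of all genes were, nor by DESeq2. 9 genes had an unadjusted p under 0.05, all lower, without a share of all genes at that threshold to set beside them. The estimate was below 0 for 67 of the 71 genes, with a median of -0.09 beside -0.02 over all genes. Without uninjected replicate A the direction turned, with 61 of the 71 above 0 and a median of 0.04, and without replicate A of every condition 56 were above 0, with a median of 0.04. For 69 of the 71, with all libraries, the 95% interval lay within 1.5-fold either way.

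Between the 2 injections, 7 of 71 genes differed on average, beside 8.99% of all genes. Higher in ndr2 explants were rpl38 (0.51 ± 0.13, adjusted p = 0.00817), whose loss in mice disturbs the axial skeleton, rps29 (0.47 ± 0.14, adjusted p = 0.0303), rpl29 (0.40 ± 0.11, adjusted p = 0.0121), rpl37 and rpl7l1. Lower were rpl21 (-0.34 ± 0.10, adjusted p = 0.0320) and rpl5b (-0.26 ± 0.05, adjusted p = 0.000285). The count was 2 without replicate A, 0 without replicate B, 14 without uninjected replicate A, and 0 with counts summed over stages. For these fits too the share of all genes called is not given here.

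rpl38 shows how unevenly the replicates bore on this. At 90% epiboly it was at 103.6, 154.3 and 71.76 CPM in ndr2 replicates A, B and C, at 82.7, 64.02 and 58.97 CPM in CA-acvr1b* and at 88.55, 57.13 and 58.5 CPM in uninjected explants. ndr2 replicate B lay far above the rest there, and replicate C was the lowest ndr2 library of rpl38 at every stage but 2-somite. Without replicate B the average difference from uninjected explants was 0.14 (adjusted p = 0.76) in place of 0.37.

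No member was called for a difference between conditions that depends on stage by the joint edgeR test. Of all genes, 5.32% were called in ndr2 beside uninjected, 3.43% in CA-acvr1b* beside uninjected and 0.11% between the 2 injections. At an unadjusted p under 0.05 there were 1, 0 and 1 of the 71 genes, and DESeq2 called 0 in each. The smallest p belonged to rpl5a in ndr2 explants (adjusted p = 0.234), rpl7l1 in CA-acvr1b* explants (adjusted p = 0.46) and rpl13a between the injections (adjusted p = 0.889).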

How the data were processed

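Values are the read counts per gene deposited by the authors, whole numbers in 1 table of 32057 genes and 63 libraries, treated as raw counts. Per the submitters' processing notes, Trim Galore, STAR and featureCounts and the builds danRer11 and GRCz11 were used; versions, strand setting and the treatment of reads that match several genes are not given in the sources used here, so duplicate copies and overlapping genes are uncertain. Columns were matched to samples by title.

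Counts were fitted with edgeR 4.0.16 in R 4.3.3 (quasi-likelihood F-test, robust, 1 mean for each of 21 groups, 42 residual degrees of freedom, TMM factors, filterByExpr with minimum count 10 and minimum total 15). P-values were adjusted by Benjamini-Hochberg over 19069 genes, and a gene was called under 0.05. Adjusted p-values of single genes come from this fit unless another test is named; ± is the SE of a fold change or the SD of a level. P-values measure the spread between libraries labelled as biological replicates. The depth of 11756626 to 19650245 counts sets a floor of 3 counts at 0.144 to 0.275 CPM, for counting error only. The fit was tested on simulated data of ndr2 and uninjected groups with 200 of 18218 genes changed. In the data more were called, 2334 of 19069 at 2-somite and 3420 on average, so the simulated shares may not hold there. On average over the stages it called 82% of 1.5-fold and 98% of 3-fold changes, and at 2-somite alone 9% and 92%. Within groups, replicate correlations were 0.927 to 0.984.

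Named members were copies sharing a number, the 5 largest and smallest uninjected changes, the largest called differences between conditions, members at the extremes of level and the stalk genes. The members and lists were chosen with earlier results of these data known. Copies were compared after seeing the data, with a pseudocount of 0.5 counts. No sequences were used. Some genes that the rule names are not reported here. Alternatives were DESeq2 1.42.0 (test and size factors), no count filter, TMM without the members, a replicate block, left-out replicates, a left-out stage and summed counts.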

Additional observations from a re-analysis of the deposited data

Results flagged for a closer look

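2 rows that encode ribosomal proteins fall outside the name and biotype rule, and hold counts. rps20 is listed as a processed transcript and not as protein-coding, and had 204072 counts in all, with 1170 to 6487 in a library. It rose from sphere to 2-somite by 1.96 ± 0.22 on the log2 scale in uninjected explants and by 1.90 ± 0.22 in ndr2 explants. The row si:dkey-159f12.2, which the gene name table calls rps11l, had 971 counts in all, with 0 to 52 in a library.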

How the results depend on the processing

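Counts of called genes kept within 1.5 times their value in 348 of 369 alternatives of 36 comparisons, among them every comparison of stages. For ndr2 against uninjected explants at 50% epiboly the count of 2 became 1 with no low-count filter and 0 to 1 with replicates left out, and at 90% epiboly the count of 0 became up to 7 (0 to 7). For ndr2 against CA-acvr1b* at 50% epiboly the count of 1 became 0 with no filter, 2 by DESeq2's test and 0 to 3 with replicates left out. On average, ndr2 against uninjected ran from 2 to 23 with replicates left out and was 0 with summed counts, and ndr2 against CA-acvr1b* ran from 0 to 14 and was 0 with summed counts. rpl26 from sphere to 2-somite turned to -3.87 without replicate C, within -3.87 to 2.82 over all replicates left out. The cause of these moves was not tested, and the share of all genes called in each alternative is not given here. Of the values for named genes, 365 stayed, 46 lost their call and 1 reversed direction. Dividing by TMM-scaled totals moved the share at sphere to 0.388% (uninjected), 0.378% (ndr2) and 0.345% (CA-acvr1b*), at 30% epiboly to 0.685% (ndr2) and 0.593% (CA-acvr1b*), at shield to 1.56% (uninjected) and 1.49% (ndr2), at 75% epiboly to 2.19% (ndr2) and 2.01% (CA-acvr1b*), at 90% epiboly to 2.41% (CA-acvr1b*) and at 2-somite to 3.22% (ndr2).

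Replicate letters paired the samples in 1 of 30 contrasts checked (ndr2, sphere to shield, correlations of 0.107 to 0.162), where the replicate block changed no call. Elsewhere not every letter passed 0.1, with correlations from -0.221 to 0.187, and the letters were not taken as pairs. Uninjected replicate A nonetheless had the highest share of the uninjected replicates at all 7 stages. With the replicate block the count for ndr2 against CA-acvr1b* on average was 11, and it moved no other count past 1.5 times. Depth limits the least counted members, rpl26 and rps15 among them.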
